A study of Mus musculus with 16 samples.

Results

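The mitochondrial ribosomal protein genes were followed through 16 RNA-seq libraries of F4/80+ adipose tissue macrophages (ATMs). Every gene whose symbol was Mrpl or Mrps followed by a number was taken, which gave 76 of the 37310 genes in the count table, 47 named for the large and 29 for the small subunit. The libraries came from male mice on a C57BL/6 background that were 7 to 10 weeks old when they started a high-fat diet (HFD) with 60% fat. The diet lasted 4 weeks (short-term, ST-HFD) or 12 weeks (long-term, LT-HFD), each with 4 libraries labelled WT and 4 labelled IRF5-KO. No mice on a normal diet were among these libraries, so every group shared the HFD. LT-HFD mice were also older than ST-HFD mice when taken, so age and diet duration cannot be told apart. IRF5-KO mice carried floxed Irf5 alleles and LysM-Cre, a recombinase placed in the Lyz2 locus and active in myeloid cells as a whole, so that the deletion was not limited to ATMs. ATMs were taken from the stroma-vascular fraction of epididymal fat with F4/80 magnetic beads, and a small share of other cells can pass such a sort.

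Mitochondria carry their own ribosome, which translates the few respiratory chain subunits encoded by mitochondrial DNA. Its 2 rRNAs come from the mitochondrial genome, whereas all of its proteins are encoded in the nucleus, made in the cytosol and imported. Some of these proteins descend from the bacterial ribosome and others were added in mitochondria. In macrophages, as in other cells, oxidative respiration needs the products of this ribosome.

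The libraries held 3279332 to 4958131 counts, 3860469 to 4958131 in the ST-HFD groups against 3279332 to 3792898 in the LT-HFD groups, so depth moved with diet duration. A microRNA feature, mmu-mir-689-2, and both mitochondrial rRNAs were the 3 most abundant features, with 18.6% to 24.1% of all counts in ST-HFD libraries against 26.1% to 34.5% for LT-HFD libraries. The highest share was in WT LT-HFD replicate 2. The targeted gene, Irf5, had no lower level where IRF5-KO was the label, with 238 ± 23.2 CPM (counts scaled to library size after TMM normalization; mean ± SD, n = 4) in WT and 262 ± 11.5 in IRF5-KO on ST-HFD, and 193 ± 20.1 and 229 ± 26.5 on LT-HFD. A count over the whole gene does not separate deleted exons from those left in place. Lyz2, the locus that holds the Cre, fell from 3673 ± 483 CPM in WT to 1789 ± 182 in IRF5-KO on LT-HFD (adjusted p = 0.0484, edgeR's quasi-likelihood test) and was 3429 ± 288 and 1757 ± 251 CPM on ST-HFD (adjusted p = 0.106). Genotypes and durations are given as the libraries are labelled, and a plot of Irf5 in the study draws the durations the other way round, so each direction between durations rests on the labels.

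The markers of the sorted cells also moved with duration. The summed level of 8 macrophage markers was 6462 to 6911 CPM in WT ST-HFD and 6307 to 6971 in IRF5-KO ST-HFD, against 4833 to 6000 and 4682 to 4995 CPM on LT-HFD. The list did not move as one: Csf1r (-0.62 in WT and -0.88 in IRF5-KO) and Itgam (-0.56 and -0.59) fell in both genotypes and Mrc1 (-0.59) fell in IRF5-KO, while Adgre1, which encodes F4/80 itself, and the Fc receptor gene Fcgr1 rose in IRF5-KO (0.46 and 0.44, adjusted p = 0.0235 and 0.0445). All 6 fibroblast markers, Lum, Pdgfra and Dcn the most significant, rose with duration in both genotypes, and their sum went from 1443 to 1806 CPM to 5005 to 16051 CPM in WT and from 1137 to 2177 CPM to 4766 to 11044 CPM in IRF5-KO, with the highest value in WT LT-HFD replicate 4. No marker of either list was at 0 throughout a group. Summed cell cycle genes went from 488 to 873 CPM to 266 to 421 CPM in WT and from 458 to 704 CPM to 318 to 417 CPM in IRF5-KO. Of these 8 genes Mki67 fell in both (-2.51 and -2.36), Top2a fell (-1.26) and Pcna rose (0.34, adjusted p = 0.0369) in WT, and 5 were positive in IRF5-KO, where the median was 0.15. Of the markers of other cells, none of the 4 tested adipocyte, 4 endothelial, 1 T cell, 1 B cell, 2 dendritic cell and 1 neutrophil genes were called in WT, and in IRF5-KO the 3 called, all lower, were Cidec (adipocytes, -1.05), Cd4 (T cells, -2.06) and Csf3r (neutrophils, -0.82). The part of these markers in any difference between durations was not tested, and in bulk libraries fewer cells of a type and less RNA per cell cannot be told apart.

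Promoters of 67 of the 76 genes were found in RefSeq (GRCm38.p6), each covering 250 bases before and 50 after the start that RefSeq gives. The 5 printed here belong to Mrpl52, the member with the highest level and a rise in both genotypes, Mrps15, the only member called lower, Mrps23 and Mrpl14, which rose in IRF5-KO, and Mrpl36, which rose in both genotypes. Capitals mark every match, on either strand, to 6 short motifs, and what each motif is follows the sequences. On the plus strand of this build the 5 windows are chr14:54426659-54426958 for Mrpl52, chr4:126046678-126046977 for Mrps15, chr11:88204138-88204437 for Mrps23, chr17:45686099-45686398 for Mrpl14 and chr13:73330759-73331058 for Mrpl36. For Mrpl36 the RefSeq start lies downstream of the start in the gene annotation used here (73328513), so that its window falls inside the annotated gene, whereas the other 4 windows reach the annotated start.
Mrpl52: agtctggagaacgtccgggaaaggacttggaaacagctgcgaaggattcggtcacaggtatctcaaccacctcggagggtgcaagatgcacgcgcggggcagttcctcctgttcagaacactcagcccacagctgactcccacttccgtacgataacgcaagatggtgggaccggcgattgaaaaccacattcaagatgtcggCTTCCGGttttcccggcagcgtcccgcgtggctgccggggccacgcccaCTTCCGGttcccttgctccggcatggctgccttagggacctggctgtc
Mrps15: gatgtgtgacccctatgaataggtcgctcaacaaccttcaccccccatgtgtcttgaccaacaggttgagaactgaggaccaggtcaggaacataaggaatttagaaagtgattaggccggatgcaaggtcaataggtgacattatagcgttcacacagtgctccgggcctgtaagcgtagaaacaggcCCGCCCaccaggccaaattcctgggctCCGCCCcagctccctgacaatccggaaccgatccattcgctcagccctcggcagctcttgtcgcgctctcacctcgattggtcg
Mrps23: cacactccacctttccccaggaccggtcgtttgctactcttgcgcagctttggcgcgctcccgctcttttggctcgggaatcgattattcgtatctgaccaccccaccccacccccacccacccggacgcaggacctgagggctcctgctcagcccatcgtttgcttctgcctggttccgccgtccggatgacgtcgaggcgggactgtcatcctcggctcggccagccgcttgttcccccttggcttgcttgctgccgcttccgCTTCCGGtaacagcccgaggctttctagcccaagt
Mrpl14: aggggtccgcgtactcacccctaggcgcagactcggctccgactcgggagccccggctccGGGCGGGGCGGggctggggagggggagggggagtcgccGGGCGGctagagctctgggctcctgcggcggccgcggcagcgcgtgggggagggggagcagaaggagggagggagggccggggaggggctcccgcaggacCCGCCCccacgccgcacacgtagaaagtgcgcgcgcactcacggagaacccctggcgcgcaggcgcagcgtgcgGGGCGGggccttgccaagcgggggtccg
Mrpl36: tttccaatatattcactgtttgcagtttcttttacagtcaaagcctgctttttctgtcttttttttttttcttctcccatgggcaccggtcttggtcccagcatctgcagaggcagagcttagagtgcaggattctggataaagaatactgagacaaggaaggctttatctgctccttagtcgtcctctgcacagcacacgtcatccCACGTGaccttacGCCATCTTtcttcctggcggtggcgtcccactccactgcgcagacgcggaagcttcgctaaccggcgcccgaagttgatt

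The motif searched for ETS factors, the family of the nuclear respiratory factor GABP, was CCGGAAG with its reverse CTTCCGG. It was held by 23 of 67 members' promoters (34.3%), against 9.12% of all 27025 promoters and 18.8% of those of tested genes. The Mrpl52 window held it 2 times and the Mrps23 window 1 time. A core for the factor YY1, AAGATGGC or GCCATCTT, was in 12 (17.9%), against 2.88% of all promoters and 4.93% of those of tested genes, and the Mrpl36 window held 1. A core for NRF1, GCATGCGC or GCGCATGC, was in 8 members (11.9%), against 2.8% and 5.81%, in 7 of 41 large and 1 of 26 small subunit promoters.
The Sp1 core GGGCGG or CCGCCC was in 33 members' promoters (49.3%), more than in all promoters (35.9%) and fewer than in those of tested genes (65.9%). The Mrpl14 window held it 5 times, 2 of them overlapping by a base, and the Mrps15 window 2 times. An E-box, CACGTG, was in 5 members (7.46%, against 7.24% of all promoters and 10.6% of those of tested genes), Mrpl36 among them, and GAAANNGAA or TTCNNTTTC, the paired sites of interferon regulatory factors, was in 7 (10.4%, against 8.57% and 7.41%). Of the 13 promoters of genes called for duration and the 54 of members not called, 4 and 19 held the ETS core, 3 and 9 the YY1 core, 7 and 26 the Sp1 core, 1 and 4 the E-box, 0 and 8 the NRF1 core, and 0 and 7 the interferon-type pair. A match in these letters is a description of the window, and 15 of the 67 members held none of the 6.

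Of the 76 genes, 75 had a gene model in GRCm38, on 17 chromosomes, and 31 of them shared exonic bases with another gene (7 on the same strand, 27 on the opposite one). Mrpl53, which lies at chr6:83109040-83109939 within such an overlap (Gm42688 on the same strand), had 0 counts in all 16 libraries, and it cannot be told whether its reads were absent or left uncounted because of the overlap. The other 75 passed the filter on low counts in every fit. Their mean level ran from 5.17 CPM (Mrpl47) to 39.9 CPM (Mrpl52) with a median of 13.9 CPM, and a gene's count in a library ran from 7 to 206. Together they took 0.105% to 0.144% of the counts. The variance between replicates was at the median 1.86 times what counting alone gives, and was under 2 times for 38 members, so that most of the replicate error of many of these genes was counting error.

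Per kilobase of transcript the levels spanned 62.1-fold, although most of the proteins are present in 1 copy per ribosome, an exception being Mrpl12 of the stalk. On this scale, CPM per kilobase averaged over 16 libraries, the highest large subunit genes were Mrpl52 (95.5), Mrpl42 (44.8) and Mrpl54 (40.2), all mitochondria-specific proteins. The lowest counted ones were Mrpl47 (1.54) and Mrpl19 (2.63), both with a bacterial counterpart. Among small subunit genes Mrps21 (31.4), Mrps15 (27.0) and Mrps24 (26.9) were highest, and Mrps17 (2.27), Mrps16 (2.62) and Mrps35 (2.73) lowest. The median was 11.1 for large and 9.32 for small subunit genes, and 11.1 for genes with a bacterial counterpart and 8.71 for those without one. A transcript length taken from the annotation sets this scale, and libraries made from 10 ng of total RNA with 12 cycles of PCR need not cover transcripts evenly.

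**Figure D1:**
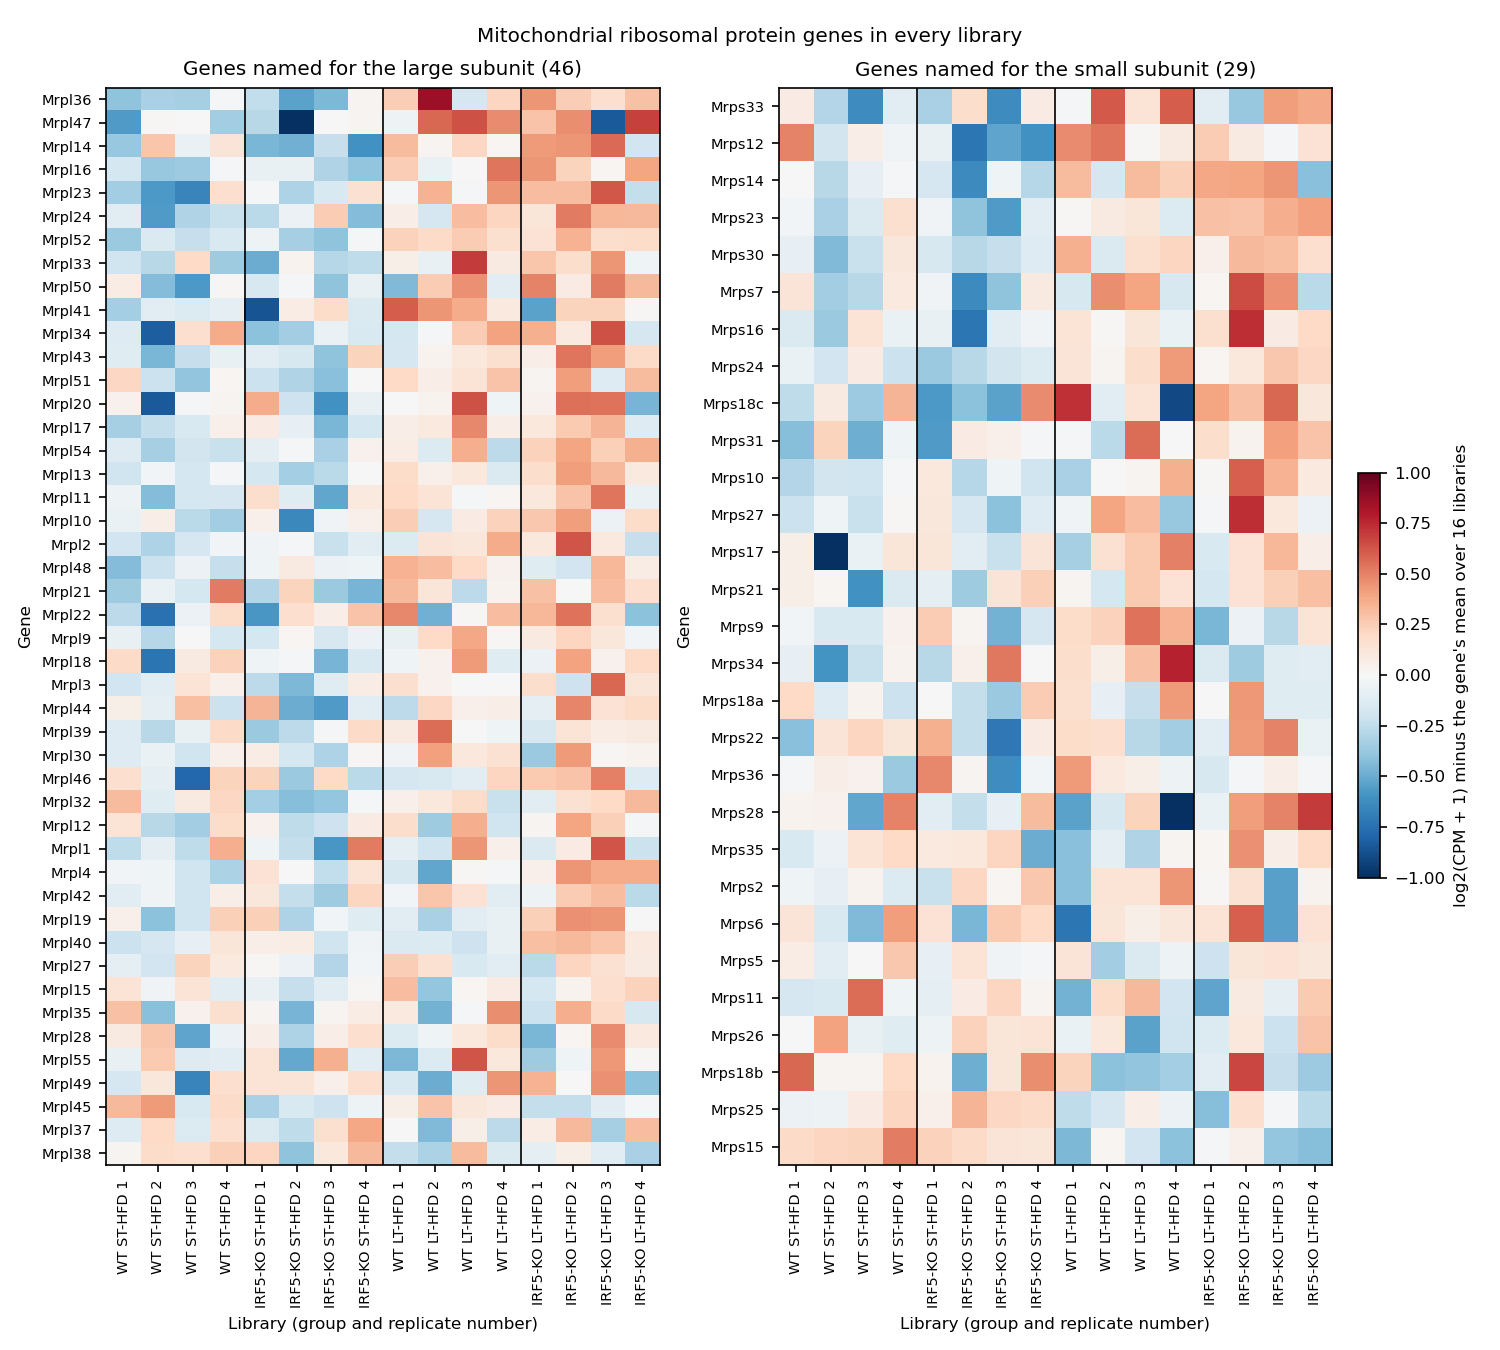
Each row is one gene, split into those named for the large (46) and the small (29) subunit, and each column one of the 16 libraries, 4 per group; colour gives log2(CPM + 1) minus the mean of the gene over the 16 libraries, and values past the colour bar are drawn at its ends. By fold change, 56 of 75 genes in WT and 65 of 75 in IRF5-KO are higher on LT-HFD, while Mrps15 runs the other way in both.

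Diet duration, which here moves together with age, was compared within each genotype to ask whether the genes for this ribosome differ between ST-HFD and LT-HFD. In WT, 56 of 75 members had a positive log2 fold change of LT-HFD over ST-HFD, with a median of 0.18 (quartiles 0.01 and 0.31), against 0.02 for all tested genes. In IRF5-KO 65 of 75 were positive, with a median of 0.31 (quartiles 0.13 and 0.43), against 0.04. In WT 3 members rose and 1 fell at an adjusted p under 0.05 (edgeR's quasi-likelihood test, Benjamini-Hochberg over 11560 genes), and of all tested genes 12.1% rose and 13.2% fell. In IRF5-KO 13 rose and 0 fell, against 15.6% and 17.2% of all tested genes, and DESeq2 also called 13 higher and 0 lower. At an unadjusted p under 0.05, 2 members were lower in IRF5-KO, as were 2495 of all 11560 tested genes. Leaving out 1 library gave 2 to 6 called members in WT, with 2 without ST-HFD replicate 1 or LT-HFD replicate 1, and 7 to 13 in IRF5-KO, with 7 without ST-HFD replicate 3 and 8 without ST-HFD replicate 1 or 2 or LT-HFD replicate 3. The share of members called higher, 4.00% in WT and 17.3% in IRF5-KO, was thus below the background in WT and close to it in IRF5-KO. Groups that did not overlap in CPM were found for 7 members higher and 1 lower in WT, where the background was 12.3% and 13.8%, and for 13 higher and 1 lower in IRF5-KO, where it was 14.3% and 15.2%. Without a filter on low counts, only 2 members were called in WT and 3 in IRF5-KO.

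Of the large subunit genes, Mrpl52 encodes a mitochondria-specific protein and lies at chr14:54426909-54429756 on the plus strand, with no other gene over its exons. In WT it had 30.2, 35.5, 33.4 and 35.4 CPM on ST-HFD and 46.4, 45.1, 47.3 and 44.0 CPM on LT-HFD. Every LT-HFD library was above every ST-HFD library, with a log2 fold change of 0.44 ± 0.11 (SE; adjusted p = 0.00602). IRF5-KO libraries had 37.9, 31.1, 29.6 and 39.1 CPM and then 43.7, 50.4, 44.7 and 44.8 CPM. They too did not overlap, and the log2 fold change was 0.41 ± 0.11 (adjusted p = 0.00751). The call was kept in both genotypes under all 14 alternatives in processing or libraries.

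Mrpl48, another mitochondria-specific protein of the large subunit (chr7:100545751-100608301, minus strand), passed the threshold in WT, where it rose from 13.9, 16.3, 18.2 and 16.02 CPM to 24.4, 23.8, 22.0 and 19.6 CPM (log2 fold change 0.48 ± 0.14, adjusted p = 0.0195). In IRF5-KO it had 18.4, 20.3, 18.3 and 18.5 CPM on ST-HFD and 17.4, 16.5, 24.2 and 20.1 CPM on LT-HFD. The IRF5-KO groups overlapped (log2 fold change 0.05, adjusted p = 0.817), and the difference between genotypes in this effect was -0.43 ± 0.20 (adjusted p = 0.969). The call in WT was kept under 11 of 14 alternatives, and its exons share bases with Rab6a on the opposite strand.

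Mrpl36, the counterpart of a small zinc-binding bacterial protein (chr13:73328513-73332178, plus strand), had 7.41, 7.89, 7.84 and 9.99 CPM in WT ST-HFD and 12.2, 19.2, 8.90 and 12.0 CPM in WT LT-HFD. Replicate 3 on LT-HFD fell among the ST-HFD values, and the log2 fold change was 0.64 ± 0.22 (adjusted p = 0.0393). In IRF5-KO it had 8.42, 6.69, 7.16 and 10.3 CPM and then 14.1, 12.2, 11.5 and 12.7 CPM, with no overlap (0.63 ± 0.22, adjusted p = 0.0367). Both calls were kept under 6 of 14 alternatives. The gene shares exonic bases with Ndufs6, a complex I subunit on the opposite strand, whose log2 fold change was 0.34 in WT (adjusted p = 0.0916) and 0.41 in IRF5-KO (adjusted p = 0.0327).

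Mrpl14, the counterpart of a bacterial protein that lies at the face between the subunits and binds the silencing factor Malsu1, showed the highest fold change of any member in IRF5-KO (chr17:45686322-45698495, plus strand). It had 4.21, 4.12, 5.08 and 3.69 CPM on ST-HFD and 8.57, 8.67, 9.55 and 5.25 CPM on LT-HFD, a 1.87-fold rise (log2 fold change 0.90 ± 0.24, adjusted p = 0.00862). Replicate 4 on LT-HFD lay just above the ST-HFD range. In WT its level was 4.49, 7.66, 5.82 and 6.79 CPM and then 7.87, 6.29, 7.23 and 6.25 CPM, with overlap (0.16 ± 0.24, adjusted p = 0.665). At 15 to 36 counts per library it was among the less deeply covered members, although all 14 alternatives kept the call in IRF5-KO. Its exons share bases with Tmem63b on the opposite strand, and without the strand setting of the counting its reads may include some of that gene.

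Mrpl13, whose bacterial counterpart joins the subunit early in its assembly, went from 15.6, 13.9, 14.6 and 17.7 CPM to 20.2, 24.1, 22.5 and 19.2 CPM in IRF5-KO (log2 fold change 0.48 ± 0.13, adjusted p = 0.0116). Its groups did not overlap there, whereas in WT they did, at 15.4 to 17.5 and 16.04 to 20.4 CPM (0.17, adjusted p = 0.410). Mrpl54, a mitochondria-specific protein, had 22.3, 23.7, 18.9 and 24.6 CPM and then 28.2, 31.7, 28.4 and 30.9 CPM in IRF5-KO (0.41 ± 0.14, adjusted p = 0.0304). Mrpl16, the counterpart of a bacterial protein near the tRNA sites, had 12.8, 12.9, 10.9 and 10.1 CPM and then 18.8, 15.99, 13.8 and 18.2 CPM (0.51 ± 0.17, adjusted p = 0.0314). For both genes the IRF5-KO groups did not overlap. Mrpl43 (0.42, adjusted p = 0.0386), a mitochondria-specific protein, and Mrpl24 (0.45, adjusted p = 0.0393), which has a bacterial counterpart, were also called in IRF5-KO while their groups overlapped. The call was kept under 13 of 14 alternatives for Mrpl13, 9 for Mrpl16, 8 for Mrpl54, 7 for Mrpl43 and 6 for Mrpl24. Exons on the opposite strand overlap those of Mrpl13 (Mtbp), Mrpl43 (Twnk) and Mrpl24 (Rrnad1). In WT, Mrpl16 (0.46, adjusted p = 0.0656) and Mrpl24 (0.42, adjusted p = 0.0634) had fold changes of similar size that missed the threshold.

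Mrps15 was the only member called lower in a contrast. It is the counterpart of a bacterial protein that binds small subunit rRNA directly, and it lies at chr4:126046925-126055532 on the plus strand with no other gene over its exons. In WT it had 28.5, 29.0, 29.1 and 35.8 CPM on ST-HFD and 17.9, 25.2, 21.7 and 18.5 CPM on LT-HFD. The groups did not overlap, and the log2 fold change was -0.56 ± 0.14 (adjusted p = 0.00813), kept under all 14 alternatives. In IRF5-KO the levels were 29.3, 28.6, 27.3 and 27.1 CPM and then 24.6, 25.8, 18.8 and 18.2 CPM. These did not overlap either, with a log2 fold change of -0.36 ± 0.14 that missed the threshold (adjusted p = 0.0670). Without IRF5-KO LT-HFD replicate 2 it passed, at -0.45.

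Among the small subunit genes that rose in IRF5-KO, Mrps23, a mitochondria-specific protein (chr11:88204388-88211507, plus strand), had the smallest adjusted p of all members. Its level was 17.8, 13.6, 12.0 and 17.0 CPM on ST-HFD and 22.7, 22.5, 23.9 and 24.7 CPM on LT-HFD, a 1.55-fold rise (log2 fold change 0.63 ± 0.15, adjusted p = 0.00405). The LT-HFD libraries lay close together and above every ST-HFD library, and all 14 alternatives kept the call. In WT it had 18.0, 14.4, 16.4 and 20.5 CPM and then 18.5, 19.6, 20.03 and 16.6 CPM (0.10 ± 0.15, adjusted p = 0.676).

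Mrps12, the counterpart of the bacterial protein at the decoding centre, had 8.62, 5.14, 6.01 and 5.66 CPM and then 11.1, 9.76, 8.99 and 10.2 CPM in IRF5-KO (0.64 ± 0.22, adjusted p = 0.0362). Mrps24, the counterpart of a bacterial protein at the entry of the mRNA channel, had 20.3, 21.6, 23.1 and 23.9 CPM and then 26.8, 28.5, 32.0 and 30.6 CPM (0.41 ± 0.12, adjusted p = 0.0169). Mrps30, which is named for the small subunit but sits in the large one, had 18.2, 16.7, 17.3 and 18.7 CPM and then 21.3, 26.0, 25.6 and 23.2 CPM (0.43 ± 0.15, adjusted p = 0.0298). In none of the 3 did the IRF5-KO groups overlap, and the calls were kept under 6, 12 and 9 of 14 alternatives. In WT the same genes gave 0.19, 0.31 and 0.32, with adjusted p of 0.559, 0.0761 and 0.123. Mrps14, named outside the rule for named genes because it was 13th of the 13 called, also has a bacterial counterpart and rose by 0.53 ± 0.19 (adjusted p = 0.0427) with overlapping groups. The exons of Mrps24 share bases with Urgcp on the same strand, and those of Mrps30 with B430218F22Rik on the opposite one, so their counts are uncertain to that extent.

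**Figure D2:**
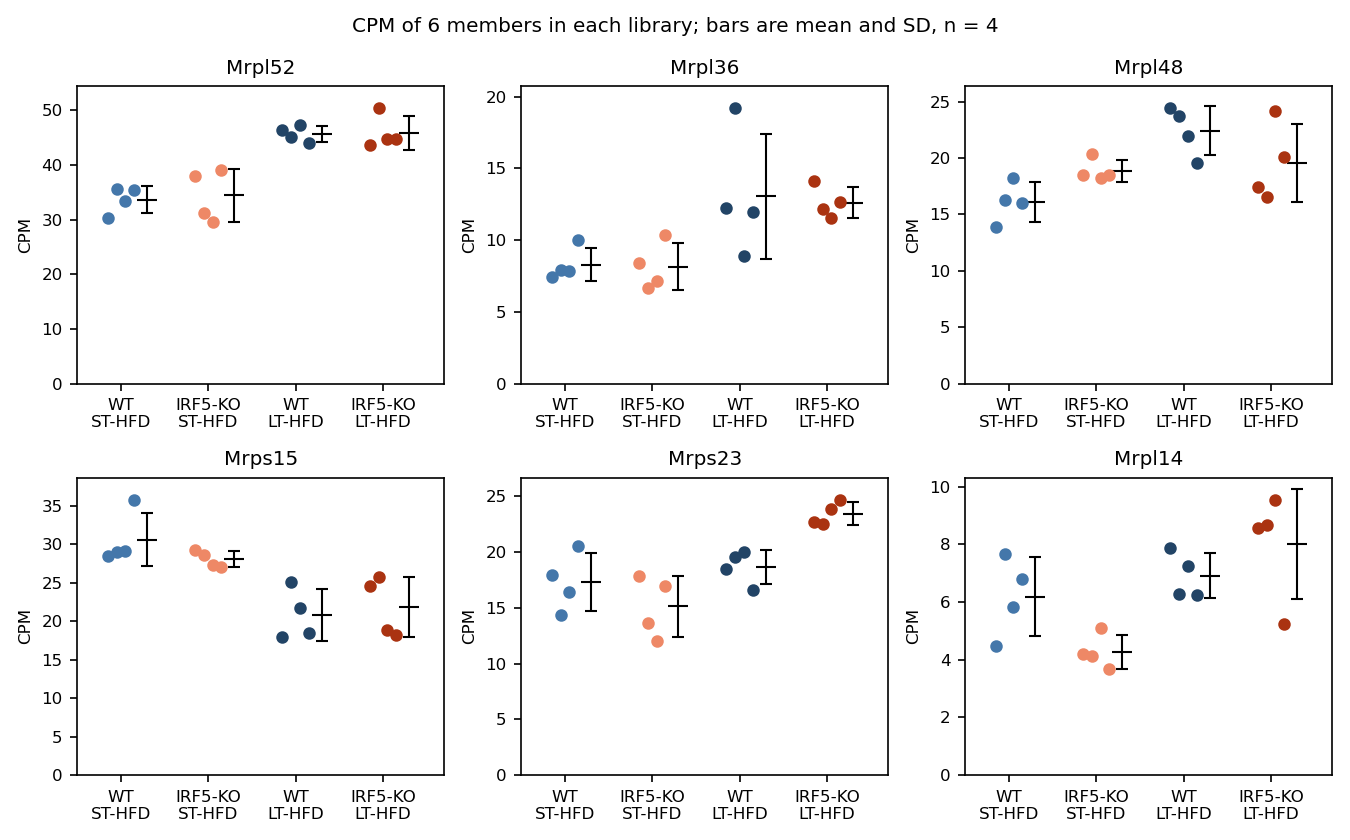
Each panel gives 1 gene, with CPM from 0 on the y axis, 1 point per library in each of the 4 groups and bars for mean and SD (n = 4). Mrpl52 sits at 29.6 to 39.1 CPM on ST-HFD and 43.7 to 50.4 CPM on LT-HFD over both genotypes, and Mrps15 at 27.1 to 35.8 CPM against 17.9 to 25.8 CPM.

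Of the other members that moved most in WT, Mrpl47 gave 0.76 ± 0.37 (adjusted p = 0.142) from 2.93 to 4.88 CPM and 4.61 to 8.07 CPM, at 7 to 29 counts per library, and Mrps33 gave 0.62 ± 0.27 (adjusted p = 0.0995). Mrps18b and Mrps28 gave -0.51 ± 0.32 and -0.41 ± 0.29 (adjusted p = 0.266 and 0.326). In IRF5-KO the most negative values after Mrps15 were those of Mrps25 (-0.33, adjusted p = 0.0730) and Mrps34 (-0.31, adjusted p = 0.310). All of these groups overlapped.

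Mrpl12, the protein of the stalk that recruits translation factors, had a mean of 29.9 ± 5.80 CPM in WT ST-HFD, 29.5 ± 3.58 in IRF5-KO ST-HFD, 31.7 ± 7.48 in WT LT-HFD and 35.2 ± 4.79 in IRF5-KO LT-HFD. Mrpl44, which resembles RNase III enzymes, had 8.18 ± 1.45, 7.07 ± 2.46, 8.18 ± 1.22 and 9.34 ± 1.73 CPM in the same order. Each group overlapped the others, and neither gene was called for duration. The 3 homologs of a single bacterial protein, Mrps18a, Mrps18b and Mrps18c, had log2 fold changes of 0.12, -0.51 and 0.11 in WT and of 0.15, -0.02 and 0.63 in IRF5-KO, none past the threshold. Mrps36, which keeps its ribosomal name but belongs to the 2-oxoglutarate dehydrogenase complex, gave 0.23 and -0.06, not called in either.

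The fold changes of both genotypes were set side by side. Of the 75 members, 52 were higher on LT-HFD in both genotypes and 6 lower in both, and 2, Mrpl52 and Mrpl36, were called in both. Over the 75 members the log2 fold changes of WT and IRF5-KO, which come from separate mice, had a Pearson correlation of 0.36, a description over genes that share libraries. The same counts and correlation were not taken over all tested genes, so a pattern particular to the members is not shown. The log2 fold change was nearly unrelated to transcript length, at a correlation of -0.11 in WT and -0.12 in IRF5-KO over 74 members.

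**Figure D3:**
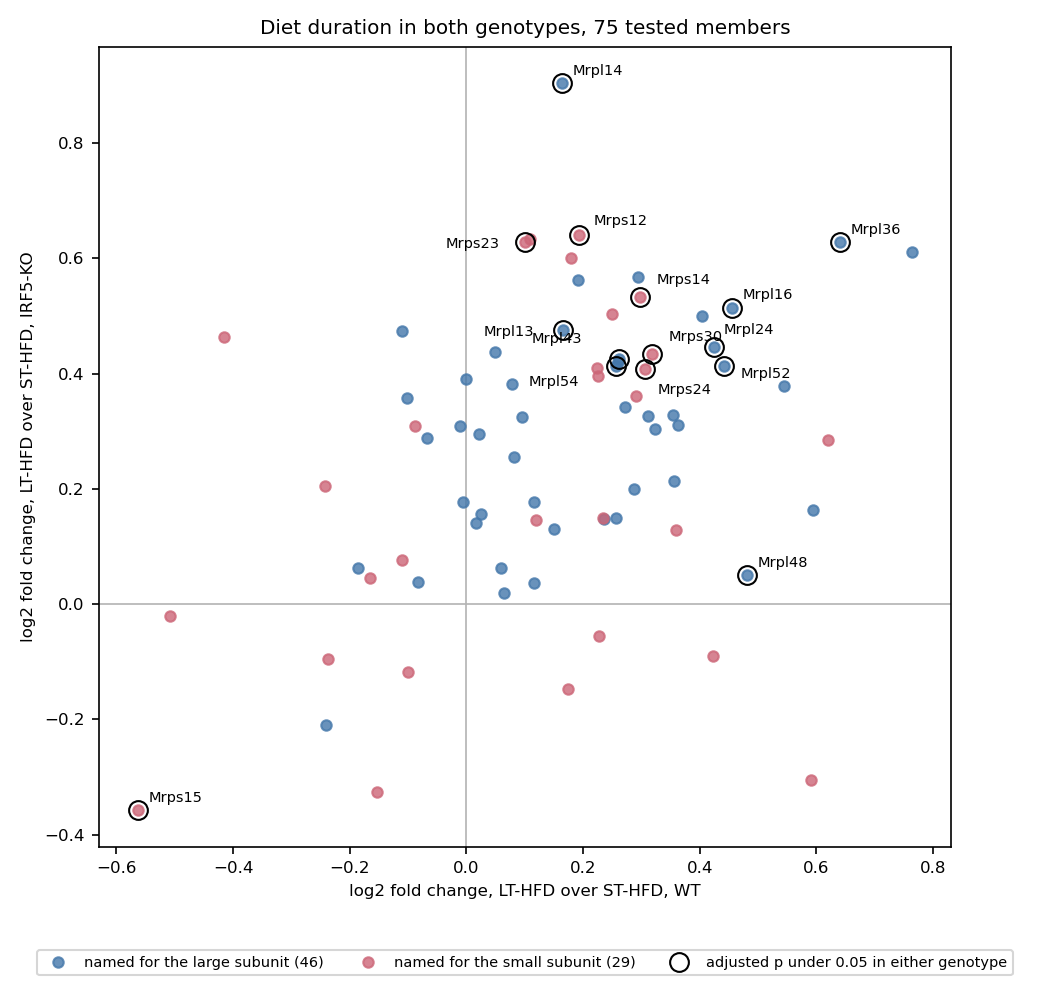
Each point is one of the 75 tested members, with its log2 fold change of LT-HFD over ST-HFD in WT on the x axis and in IRF5-KO on the y axis; colours separate genes named for the large (46) and small (29) subunit, and rings mark an adjusted p under 0.05 in either genotype. The upper right corner holds 52 members and the lower left 6, Mrps15 among them.

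Genotypes were compared within each duration, the contrast of the study's design. On ST-HFD 36 of 75 members were higher in IRF5-KO with a median log2 fold change of -0.01, and on LT-HFD 50 were higher with a median of 0.07, against 0.00 for all tested genes at both durations. Leaving out 1 library moved these medians from -0.06 to 0.04 on ST-HFD and from 0.0026 (without IRF5-KO replicate 2) to 0.14 on LT-HFD. Members called at an adjusted p under 0.05 by edgeR were 0 at either duration, where the background was 0.00913% (ST-HFD) and 0.0182% (LT-HFD). Before adjustment, ST-HFD had 0 members higher and 3 lower at p under 0.05 (background 0.949% and 0.894%), while LT-HFD had 5 higher and 2 lower (background 2.23% and 3.5%). DESeq2 called 0 after adjustment as well, and before it gave 0 higher with 2 lower for ST-HFD and 3 higher with 2 lower for LT-HFD. With a median SE near 0.2 for a member, shifts as small as these medians could not be called for single genes.

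The 3 lower members on ST-HFD, by the unadjusted p of edgeR's quasi-likelihood test, were Mrps12 (-0.64), Mrpl32 (-0.47) and Mrpl45 (-0.43), each with an adjusted p of 1.0. Mrpl45 holds the exit of the peptide tunnel at the inner membrane. It had 20.1, 21.6, 14.2 and 18.3 CPM in WT and 12.4, 14.1, 13.6 and 15.3 CPM in IRF5-KO on ST-HFD, where WT replicate 3 fell among the IRF5-KO values. Libraries were also compared by replicate number, although libraries of different number on ST-HFD deviated together as strongly in places. By number, 8 members were lower in IRF5-KO in all 4 pairs, these 3 among them as their choice by a low p makes likely. In the other direction 1, Mrpl48, was higher in all 4, where the background was 6.24% lower and 6.53% higher. With the replicate block, 0 members were called on ST-HFD, and at an unadjusted p under 0.05 they were 0 higher and 3 lower, as without it. On LT-HFD Mrpl45 had 16.6, 19.6, 17.2 and 16.9 CPM in WT and 13.3, 13.3, 14.6 and 15.8 CPM in IRF5-KO, without overlap (-0.31, adjusted p = 0.853). The largest positive values on ST-HFD were those of Mrps34 (0.31), Mrpl23 (0.25) and Mrpl49 (0.23), and Mrpl14 gave -0.53, all with an adjusted p of 1.0.

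On LT-HFD the members highest in IRF5-KO were Mrps28 (0.78 ± 0.30), Mrpl4 (0.48 ± 0.17) and Mrpl19 (0.47 ± 0.18). Mrpl4 had 20.9, 16.1, 23.6 and 23.1 CPM in WT and 24.3, 32.3, 30.6 and 30.6 CPM in IRF5-KO, which did not overlap. Groups did not overlap for 4 members higher in IRF5-KO (Mrpl4, Mrpl19, Mrpl40 and Mrps23, background 1.34%) and for 3 lower (Mrps9, Mrps34 and Mrpl45, background 1.67%), and on ST-HFD for 1 higher (Mrpl48, background 0.639%) and 0 lower (background 0.83%). The lowest were Mrps34 (-0.58 ± 0.21), Mrps9 (-0.51 ± 0.18) and Mrpl41 (-0.41 ± 0.22). All 6 had an adjusted p of 0.853. Mrps34, a mitochondria-specific protein needed for a stable small subunit, had 13.0, 11.9, 14.2 and 20.1 CPM in WT and 10.2, 8.67, 10.4 and 10.5 CPM in IRF5-KO. On ST-HFD it had 10.7, 7.20, 9.62 and 11.7 CPM in WT and 9.22, 11.8, 16.9 and 11.3 CPM in IRF5-KO.

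Whether the effect of genotype differed between durations was tested as an interaction over all 16 libraries. No member had an adjusted p under 0.05, as for all 11560 tested genes (0%), and at an unadjusted p under 0.05 the interaction was positive for 4 members and negative for 3, where the background was 1.63% and 2.29%. DESeq2 also gave 0 after adjustment, and 2 and 1 before it. Mrps34 had the smallest p of the members (-0.90 ± 0.31, adjusted p = 0.969), and its exons share bases with Nme3 on the same strand. The positive ones were Mrps28 (0.88), Mrpl14 (0.74), Mrpl32 (0.58) and Mrps23 (0.53), and the other negative ones Mrps9 (-0.51) and Mrpl48 (-0.43). The larger count of members called for duration in IRF5-KO than in WT is therefore not shown to be a difference between genotypes.

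The 2 subunits were then set side by side. Of the 46 tested large subunit genes, 37 were higher on LT-HFD in WT (median log2 fold change 0.18) and 45 in IRF5-KO (median 0.32), with 3 (6.52%) and 8 (17.4%) called higher, against 12.1% and 15.6% of all tested genes. Of the 29 small subunit genes, 19 were higher in WT (median 0.18) and 20 in IRF5-KO (median 0.20), with 0 called higher and 1 lower in WT and 5 (17.2%) called higher in IRF5-KO. At an unadjusted p under 0.05, 5 small subunit genes were higher in WT, as were 2070 of all 11560 tested genes. Mrpl38 was the only large subunit gene below 0 in IRF5-KO, at -0.21. Assigning genes by structure, which moves Mrps30 and Mrps18a to the large subunit and leaves Mrps36 out, gave medians of 0.18 and 0.18 in WT and 0.32 and 0.24 in IRF5-KO. Genes with a bacterial counterpart had medians of 0.18 in WT and 0.33 in IRF5-KO, and mitochondria-specific genes 0.13 and 0.24.

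Summed over all members, the level was 1152 ± 74.9 CPM in WT ST-HFD, 1139 ± 74.0 in IRF5-KO ST-HFD, 1286 ± 52.4 in WT LT-HFD and 1353 ± 113 in IRF5-KO LT-HFD. Large subunit genes summed to 687 to 799 CPM and 811 to 906 CPM in WT on ST-HFD and LT-HFD, and to 686 to 794 CPM and 824 to 965 CPM in IRF5-KO. Their groups did not overlap between durations, and their means differed by 14.7% and 22.6%. Small subunit genes summed to 391 to 450 CPM and 424 to 454 CPM in WT, and to 391 to 434 CPM and 413 to 514 CPM in IRF5-KO. Here the groups overlapped, with means 6.01% and 12.1% higher on LT-HFD. Between genotypes the sums overlapped at both durations for either subunit. These sums are scaled by TMM, and as a share of all counts, a scale chosen after the values were seen, the differences between durations were smaller. On that scale all members took 0.106% to 0.134% of counts in WT ST-HFD and 0.109% to 0.138% in WT LT-HFD, with a mean 4.75% higher on LT-HFD, against 11.6% in CPM. In IRF5-KO the shares were 0.105% to 0.128% and 0.124% to 0.144%, with a mean 16.2% higher, against 18.8% in CPM. The mean share of large subunit genes was 7.75% higher on LT-HFD in WT and 19.9% in IRF5-KO. The groups overlapped in both genotypes, so whether they separate depends on the scale. For small subunit genes the shares differed by -0.56% in WT, the opposite direction to that in CPM, and by 9.62% in IRF5-KO. All counts include mmu-mir-689-2 and the mitochondrial rRNAs, whose joint share was larger in every LT-HFD library than in any ST-HFD library. A larger share of these features lowers the share left for all other genes. Shares without these features were not compared, so their part in the overlap and in the reversed direction was not tested.

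The ratio of large to small subunit levels, summed per kilobase, was 1.86 to 1.98 in WT ST-HFD (mean 1.93 ± 0.0578), 1.93 to 2.04 in IRF5-KO ST-HFD (1.99 ± 0.0479), 2.04 to 2.20 in WT LT-HFD (2.12 ± 0.0675) and 2.03 to 2.30 in IRF5-KO LT-HFD (2.17 ± 0.111). WT groups did not overlap between durations and IRF5-KO groups did, at their edges. Summed CPM without lengths gave 1.76 to 1.78 and 1.85 to 1.99 in WT, and 1.75 to 1.83 and 1.88 to 2.07 in IRF5-KO, with no overlap in either. The ratio was also taken without Mrpl52 in its numerator and Mrps15 in its denominator, an omission chosen after their values were seen. Without both, the WT groups per kilobase overlapped, at 1.80 to 1.94 and 1.84 to 2.00, and so did the IRF5-KO groups, at 1.86 to 1.99 and 1.82 to 2.11. In summed CPM without both, the WT groups overlapped as well (1.80 to 1.84 and 1.82 to 1.99), whereas the IRF5-KO groups did not, at 1.798 to 1.855 and 1.862 to 2.057. Per kilobase without Mrpl52 alone, the WT groups did not overlap (1.61 to 1.72 and 1.73 to 1.87) and the IRF5-KO groups did (1.685 to 1.77 and 1.71 to 1.98). Without Mrps15 alone, the groups overlapped in WT (2.05 to 2.23 and 2.17 to 2.36) and in IRF5-KO (2.150 to 2.295 and 2.153 to 2.439).

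**Figure D4:**
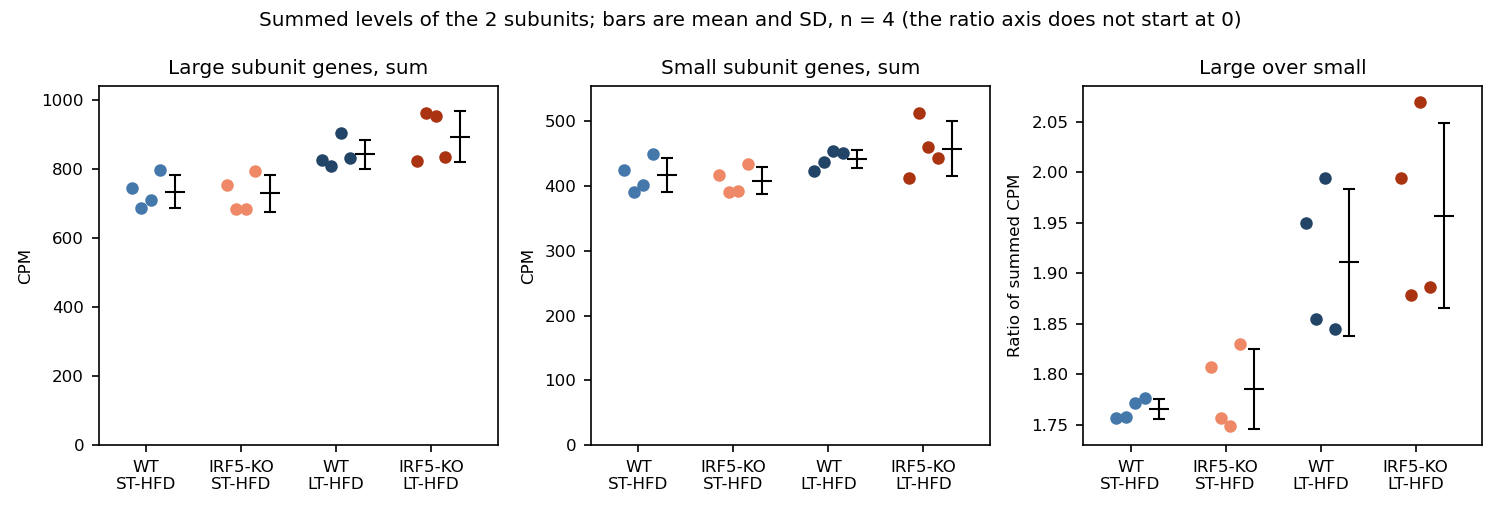
The panels give, for each library of the 4 groups, the summed CPM of large and of small subunit genes and the ratio of these sums without lengths, with bars for mean and SD (n = 4); the ratio axis does not start at 0. In TMM-scaled CPM, though not as a share of all counts, large subunit sums separate the durations in both genotypes, 687 to 799 against 811 to 906 CPM in WT, and small subunit sums overlap.

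Genes that work with the mitochondrial ribosome were read from lists, described here by counts. Of 5 ribosomal proteins without an Mrp name, Chchd1 rose with duration in IRF5-KO (0.77 ± 0.22, adjusted p = 0.0121), and in WT it gave 0.57 (adjusted p = 0.0629). This 1 call was 20% of the list, against 15.6% of all tested genes. Ict1, a release factor built into the large subunit that newer annotation calls Mrpl58, gave 0.25 in WT and 0.32 in IRF5-KO, and Mrp63, now Mrpl57, gave 0.17 and 0.41, none called. The 11 translation factors had 2 positive values in WT (median -0.12) and 7 in IRF5-KO (median 0.22), with 0 called in either. At an unadjusted p under 0.05, 2 were lower in WT and 1 was higher in IRF5-KO. Of all 11560 tested genes, 2083 were lower in WT and 2449 higher in IRF5-KO at that threshold. In WT, Gfm2, a factor of ribosome recycling, and the elongation factor Tufm were those 2, at -0.45 (adjusted p = 0.0502) and -0.37 (adjusted p = 0.0553).

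Of 22 genes for charging mitochondrial tRNAs, which are aminoacyl-tRNA synthetases and 3 subunits of the amidotransferase that completes glutaminyl-tRNA, the synthetase genes Aars2 (-0.83, adjusted p = 0.0247) and Sars2 (-1.16, adjusted p = 0.0369) fell in WT, and Fars2 (0.80, adjusted p = 0.00312) and Wars2 (0.71, adjusted p = 0.0480) rose in IRF5-KO. The calls made up 9.09% of the list in either genotype, below the 13.2% of all tested genes lower in WT and the 15.6% higher in IRF5-KO. Among 22 tested assembly factors 4 (18.2%, near the 15.6% of all tested genes) rose in IRF5-KO and 0 were called in WT. At an unadjusted p under 0.05, WT had 1 in each direction, against 2070 higher and 2083 lower of all 11560 tested genes. The 3 with the smallest p were Ngrn (0.78), which binds 16S rRNA, Malsu1 (0.88), the partner of the Mrpl14 protein, and Ddx28 (0.84), an RNA helicase. Of 11 tested genes of mitochondrial transcription and RNA stability, Tfam, which packages mitochondrial DNA and starts its transcription, rose in WT (0.63, adjusted p = 0.00933). Polrmt, the mitochondrial RNA polymerase, fell in IRF5-KO (-1.14, adjusted p = 0.000682) and Pnpt1 rose there (0.39, adjusted p = 0.0443). Each of these calls was 9.09% of its list, below the 12.1% of all tested genes higher in WT and the 15.6% higher and 17.2% lower in IRF5-KO. Of 9 tested regulators, the coactivators Ppargc1b (-1.36 in WT and -1.85 in IRF5-KO) and Pprc1 (-0.54 and -0.76) and the factor Yy1 (-0.39 and -0.42) fell in both genotypes, and Gabpb1, a subunit of GABP, rose in WT (0.49, adjusted p = 0.0361). The 3 lower were 33.3% of the list in either genotype, against 13.2% of all tested genes in WT and 17.2% in IRF5-KO. The 1 higher was 11.1% in WT, against 12.1%.

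Other ribosomal and respiratory genes, lists added after the members' values were seen, gave a measure of scale. Of 76 cytosolic ribosomal protein genes, 63 (82.9%) rose in WT (median 0.41) and 66 (86.8%) in IRF5-KO (median 0.46). Of all tested genes, 12.1% rose in WT and 15.6% in IRF5-KO. Of 74 tested nuclear genes of the respiratory chain, 27 (36.5%, against 12.1%) rose in WT (median 0.32) and 45 (60.8%, against 15.6%) in IRF5-KO (median 0.41). In IRF5-KO 1 fell (1.35%, against 17.2% of all tested genes). The members' medians of 0.18 and 0.31 were below both, and a median SE of 0.19 for members stood against 0.10 for cytosolic ribosomal and 0.13 for respiratory chain genes. Of 8 tested mRNAs of the mitochondrial genome, 2 (25%, against 12.1% of all tested genes) rose in WT (median 0.04). In IRF5-KO 1 rose (12.5%, against 15.6%) and 4 fell (50%, against 17.2%), with a median of -0.47. The rRNAs of the mitochondrial ribosome rose in WT, mt-Rnr1 by 0.74 (adjusted p = 0.00674) and mt-Rnr2 by 0.79 (adjusted p = 0.00641), and gave 0.28 and 0.44 in IRF5-KO, after a library preparation that depletes rRNA.

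**Figure D5:**
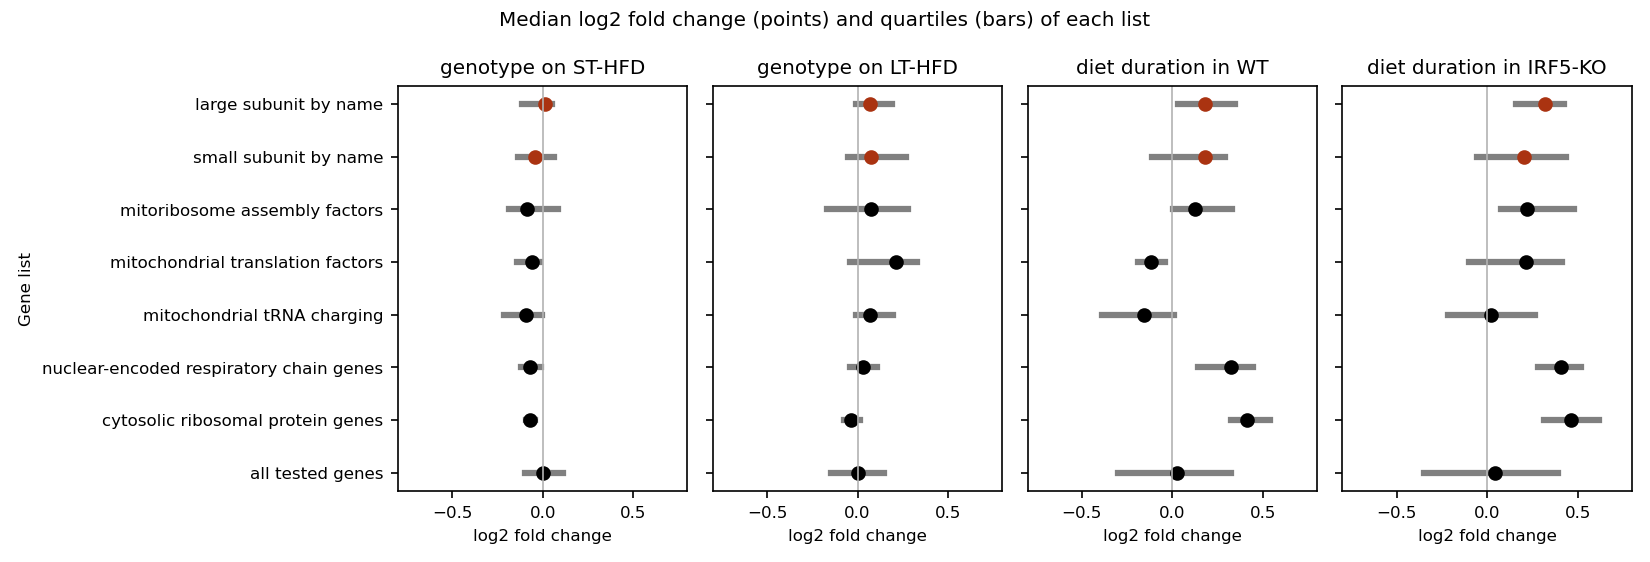
Points give the median log2 fold change of each gene list and bars its quartiles, in 4 panels: IRF5-KO over WT on each diet duration, and LT-HFD over ST-HFD in each genotype; the 2 subunits are in red. For duration, large and small subunit genes sit at 0.18 and 0.18 in WT and 0.32 and 0.20 in IRF5-KO, above all tested genes (0.02 and 0.04) and below cytosolic ribosomal protein genes (0.41 and 0.46).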

How the data were processed

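RNA from F4/80+ ATMs of 4 mice per genotype and diet duration was sequenced from stranded total RNA libraries depleted of rRNA. The submitters' processing notes name fastp 0.19.11, STAR 2.7.3a and the builds mm10 and mm9, and the study's methods give mm10. The authors deposited raw counts per gene, without normalization. The annotation and the strand setting of the counting are not given in the sources used here, so reads of overlapping genes may be shared.

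Counts were filtered with filterByExpr, normalized by TMM and tested with edgeR 4.0.16 in R 4.3.3 by its quasi-likelihood test with Benjamini-Hochberg adjustment over all tested genes. Genotypes were fitted within each duration (8 libraries) and durations and the interaction over all 16. The study used DESeq2, which was an alternative here (version 1.42.0). CPM values use the TMM-scaled totals, and lengths are those of the longest principal transcript in the GRCm38 annotation. Replicates are separate mice as far as the labels tell.

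The members, lists and rules were chosen with earlier results of these data known. Genes were named if called (at most 12 in a direction), among the 3 most extreme in a contrast or per kilobase in a subunit, at 0 throughout or of a particular place in the ribosome. Listed genes were named if called, at most 3 per list and direction. Those outside the rule (Mrps14, Mrpl40, Gfm2, Tufm, Ict1, Mrp63, Mrpl38, Ndufs6 and the rRNAs) were chosen after their values were seen. Alternatives were other normalizations, no filter, no top 3 features, a replicate block and leaving out each library. Deviations from the group means correlated between same-numbered libraries of the genotypes at 0.368, 0.483, 0.179 and 0.298 on ST-HFD. On LT-HFD they did so at -0.0696, -0.151, 0.0585 and 0.233. Different-numbered libraries on ST-HFD ran from -0.509 (WT replicate 2 with IRF5-KO replicate 1) to 0.467 (WT replicate 4 with IRF5-KO replicate 1), so pairs by number are not certain. Different mice made up the durations, so these were not paired. Lists of other cell types (adipocyte, endothelial, T cell, B cell, dendritic cell, neutrophil) and of the cell cycle were also read.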

Additional observations from a re-analysis of the deposited data

Results flagged for a closer look

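In 9 of 176 groups of 4 libraries (39 member genes, summed levels and ratios in each of the 4 study groups), 1 library lay far from the other 3 by Dixon's criterion, and chance gives about 1 in 20 groups. On ST-HFD, Mrps15 had 35.8 CPM in WT replicate 4 against 28.5 to 29.1, Mrpl48 had 20.3 CPM in IRF5-KO replicate 2 against 18.3 to 18.5, Mrps16 had 3.6 CPM in the same library against 6.01 to 6.40, and Mrps18c had 9.35 CPM in IRF5-KO replicate 4 against 4.01 to 4.63. On LT-HFD, WT replicate 2 had 10.1 CPM of Mrpl19 against 11.9 to 12.2, and WT replicate 1 had 6.51 CPM of Mrps18b against 3.84 to 4.08. IRF5-KO replicate 2 on LT-HFD stood apart for 3 genes, with 50.4 CPM of Mrpl52 against 43.7 to 44.8, 11.7 CPM of Mrps16 against 7.02 to 7.72 and 8.67 CPM of Mrps34 against 10.2 to 10.5. No cause was tested.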

How the results depend on the processing

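The members called for diet duration were 4 in WT and 13 in IRF5-KO. Without a filter on low counts, which enlarges the table that p-values are adjusted over, they were 2 and 3. In WT they were 5 with the 8 WT libraries alone, 5 with DESeq2 and 5 with the replicate block, and in IRF5-KO 10, 13 and 12, so the block changed no count by over 1.5 times. Leaving out each library in turn gave 2 to 6 in WT, with 2 without WT LT-HFD replicate 1 or WT ST-HFD replicate 1, and 7 to 13 in IRF5-KO, with 8 without LT-HFD replicate 3 or ST-HFD replicate 1 or 2 and 7 without ST-HFD replicate 3. Without WT LT-HFD replicate 2, which stood apart, WT had 6, and without replicate 4, with the highest fibroblast markers, 3. For genotype and for the interaction 0 members were called under every alternative. The median log2 fold change for duration stayed at 0.14 to 0.22 in WT and 0.23 to 0.35 in IRF5-KO. For genotype it moved between -0.06 and 0.04 on ST-HFD, changing sign without WT replicate 4 or IRF5-KO replicate 3, and between 0.0026 and 0.14 on LT-HFD.

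The ratio of large to small subunit levels moved with its definition (values are for WT and then IRF5-KO on ST-HFD, followed by WT and then IRF5-KO on LT-HFD). With subunits by structure it was 2.37, 2.44, 2.62 and 2.64, and with summed CPM 1.77, 1.79, 1.91 and 1.96. Settings added after the values were seen gave 1.66, 1.72, 1.79 and 1.85 without Mrpl52, 2.16, 2.21, 2.27 and 2.34 without Mrps15, 1.86, 1.91, 1.92 and 1.99 without both, and 1.82, 1.83, 1.90 and 1.95 with summed CPM without both. For 36 fold changes of named members, the alternatives left the side of the threshold as it was in 440 cases, lost the call in 61, gained one in 3 and turned the direction in 0. At 3279332 to 4958131 counts per library and a median of 54.5 counts per member, the SE of a member was about 0.19 on the log2 scale, which limits what a single gene can show.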
